A study of Homo sapiens with 5 samples.

Results

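The CDK inhibitor genes are the 7 genes that encode the small proteins which bind and block cyclin-dependent kinases (CDKs), and their rows were taken by gene symbol from a table of 26485 genes. They form 2 families, the 3 Cip/Kip genes CDKN1A, CDKN1B and CDKN1C and the 4 INK4 genes CDKN2A, CDKN2B, CDKN2C and CDKN2D, and all 7 were present in the table and passed the filter on low counts. The data are 5 RNA-seq libraries of RPE1, wild-type human retinal pigment epithelial cells kept in culture as a telomerase-immortalised line. The control group consisted of 2 libraries of cells that received only DMSO, the solvent of the drug, for 18 h. The treated group consisted of 3 libraries of cells given doxorubicin for 18 h, 2 at 0.2 µM and 1 at 0.34 µM, and both groups had the same genotype and culture medium. The doses are those of the sample titles, whereas the treatment description in the labels writes 200 and 340 µM. Pooling of both doses follows the study's methods.

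Doxorubicin intercalates into DNA and traps topoisomerase II, which leaves double-strand breaks. Progression through the cell cycle depends on CDKs paired with cyclins. INK4 proteins bind CDK4 and CDK6 and keep them from cyclin D, whereas Cip/Kip proteins bind whole cyclin-CDK complexes, mainly those of CDK2. CDKN1A encodes p21, known for holding cells in arrest after DNA damage. In RNA from bulk cells, a change in the share of cells of one kind and a change in RNA per cell cannot be told apart.

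The libraries held between 23773061 and 36725345 counts on genes, and the shallowest and the deepest were both doxorubicin libraries. Of 8 defining genes of retinal pigment epithelium, MITF and OTX2 lay between 23.5 and 56.7 CPM (a gene's counts relative to the library total after edgeR's TMM scaling) in every library. RPE65, RLBP1, TYR and TTR had at most 8 counts in any library, and BEST1 and PMEL did not exceed 3.91 CPM. Both BEST1 and PMEL were higher in every doxorubicin library than in DMSO. The epithelial keratin KRT8 lay at 345.5 and 369 CPM in DMSO and between 636 and 661 CPM after doxorubicin, KRT18 between 238 and 515 CPM with all treated libraries above both controls, and the mesenchymal VIM at 5796 and 5805 CPM in DMSO and between 4711 and 5227 CPM after doxorubicin. The part of these markers in the results was not tested.

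The regulatory sequence directly upstream of the annotated starts is shown for the gene that rose, for 1 start of the gene that fell, and for both starts of CDKN2A, whose transcripts share a single row of counts. RefSeq (GRCh38.p14) listed promoter windows for 6 of the 7 genes, and the 250 bases before each start were read 5′ to 3′ on the strand of the gene. Capitals mark GGGCGG, the GC box bound by SP1, wherever it was found on that strand or, as its complement, on the other.
CDKN1A, chr6:36678464-36678713, plus strand: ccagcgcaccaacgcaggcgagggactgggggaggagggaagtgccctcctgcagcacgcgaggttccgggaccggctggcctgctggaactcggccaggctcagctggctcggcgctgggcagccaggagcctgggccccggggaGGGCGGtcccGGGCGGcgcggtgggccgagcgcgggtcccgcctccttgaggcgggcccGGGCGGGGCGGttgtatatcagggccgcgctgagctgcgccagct
CDKN2C, the second of 3 starts, chr1:50968456-50968705, plus strand: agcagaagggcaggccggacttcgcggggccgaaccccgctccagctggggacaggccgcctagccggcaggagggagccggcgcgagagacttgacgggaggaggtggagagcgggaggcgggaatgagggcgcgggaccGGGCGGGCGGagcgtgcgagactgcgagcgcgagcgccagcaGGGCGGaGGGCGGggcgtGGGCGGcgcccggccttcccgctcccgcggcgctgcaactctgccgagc
CDKN2A, the upstream start, from which ARF mRNA is made, chr9:21995325-21995574, minus strand: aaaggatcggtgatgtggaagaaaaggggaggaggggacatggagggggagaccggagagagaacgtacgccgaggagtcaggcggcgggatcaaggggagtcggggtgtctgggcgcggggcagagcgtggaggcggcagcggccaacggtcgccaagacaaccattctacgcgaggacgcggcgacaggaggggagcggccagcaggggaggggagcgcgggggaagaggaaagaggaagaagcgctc
CDKN2A, the downstream start, from which p16 mRNA is made, chr9:21974858-21975107, minus strand: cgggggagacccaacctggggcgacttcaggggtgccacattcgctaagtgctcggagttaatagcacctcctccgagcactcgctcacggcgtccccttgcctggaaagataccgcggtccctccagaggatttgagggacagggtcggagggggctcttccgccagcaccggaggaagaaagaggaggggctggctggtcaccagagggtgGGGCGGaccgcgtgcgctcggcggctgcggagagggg
GGGCGG occurred 4 times before CDKN1A, counting copies that overlap, and 0, 5 and 1 times before the 3 starts of CDKN2C, of which the start with the most copies is printed. Before the starts of CDKN2A it occurred 0 and 1 times. CDKN2B and CDKN2D each had 2 copies and CDKN1B had 1, and 42.6% of all 35116 RefSeq windows of this length held at least 1. TTTGAA, a cell cycle element, and TATAAA were found in 0 of the windows of the CDK inhibitor genes, against 13.3% and 10.7% of all windows. Windows of 6 genes are too few to show whether a motif is rarer here. TTTNNCGC, which covers the usual E2F sites, was found once, before CDKN2D, and in 5.92% of all windows. A match is only a run of letters, and sequence farther away was not read.

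Of the 7 CDK inhibitor genes, 2 passed the study's threshold of an adjusted p of 0.01 in edgeR's quasi-likelihood test, where 4.02% of the 14187 genes tested did. CDKN1A rose, as did 1.29% of all genes tested, and CDKN2C fell, as did 2.73%. The other 5 genes did not pass, and 4 of them had negative fold changes. The median log2 fold change of the 7 genes was -0.58, beside 0.013 over all genes tested. For 5 of the 7 the treated and control libraries were separated without overlap, which was also the case for 47.7% of all genes. DESeq2 called 3 of the 7, the third being CDKN2D, and called 14.1% of the genes it tested.

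**Figure D1:**
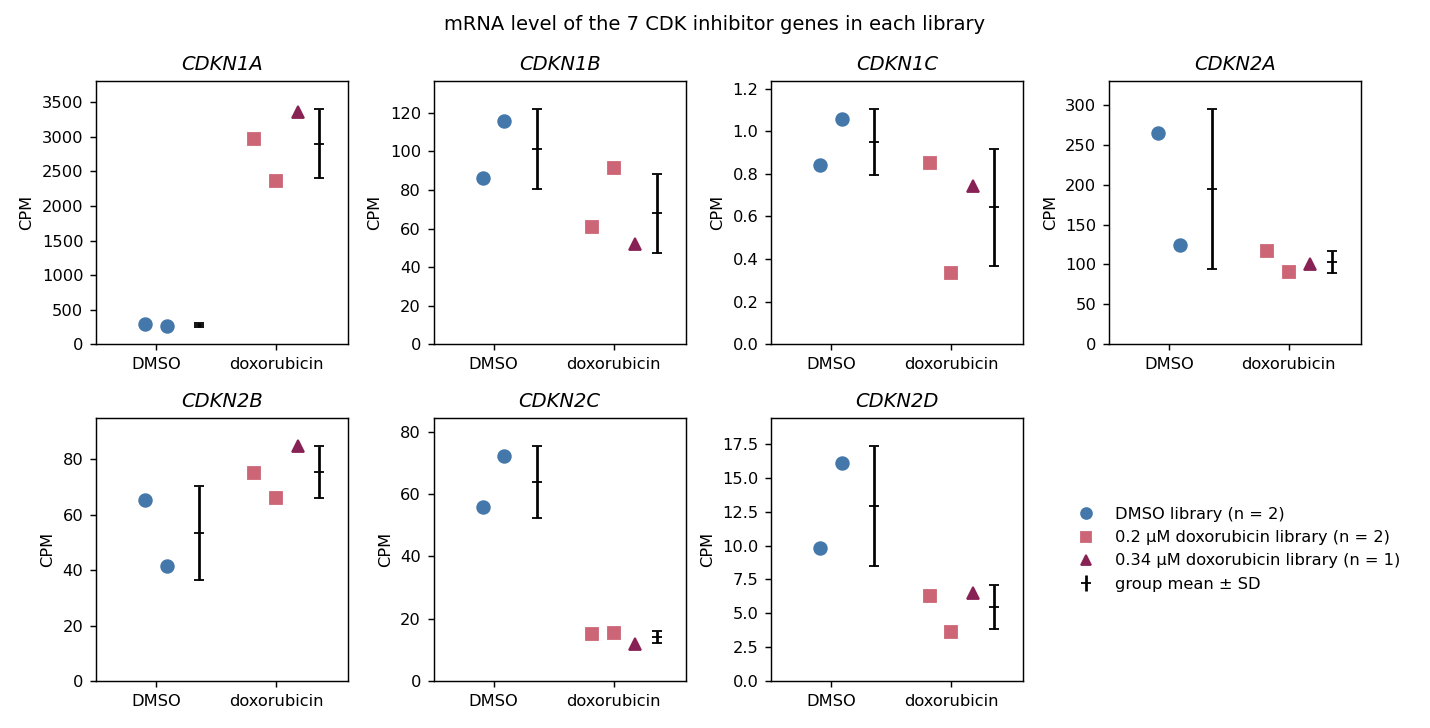
Level of each CDK inhibitor mRNA (y axis, CPM, each from 0) in the 2 DMSO and the 3 doxorubicin libraries, with the group mean and SD in black. CDKN1A is at least 2366 CPM in every doxorubicin library and at most 294 CPM in DMSO, CDKN2C is lower in all doxorubicin libraries, and the groups overlap for CDKN1B and CDKN1C.

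Among the Cip/Kip genes, CDKN1A (chromosome 6 of GRCh38, 36676463 to 36687332) had 294 and 258 CPM in the DMSO libraries, 2975 and 2366 CPM at 0.2 µM and 3358 CPM at 0.34 µM. Every treated library thus lay far above both controls. The raw counts behind these values were 7720 and 6577 in DMSO and 76944, 56905 and 121872 after doxorubicin. The mean rose from 276 ± 26.1 CPM (SD, n = 2) to 2899.8 ± 500.4 CPM (SD, n = 3). This was a 10.5-fold rise, with a log2 fold change of 3.39 ± 0.23 (SE) and an adjusted p of 0.000768 (edgeR). Of all reads counted on genes, CDKN1A took between 0.0269% and 0.0289% in DMSO and between 0.239% and 0.332% after doxorubicin. By its fold change it ranked 100 of 14187 genes. By mean level per length (union of all exons) it moved from rank 286 to rank 12 of the 12938 genes with such a length. Its rank by other lengths was not computed. Its annotated span overlaps DINOL, an antisense noncoding gene, and the strand setting of the counting was not given in the sources used here. Without DMSO replicate 2 the log2 fold change was 3.28 and the adjusted p from edgeR was 0.0132, so that the call was lost, while the treated libraries still lay above the remaining control.

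CDKN1B encodes p27, which holds cells in quiescence and is removed by the ubiquitin ligase subunit SKP2 as they enter the cycle. It had 86.4 and 116 CPM in DMSO, and 60.7, 91.2 and 51.7 CPM after doxorubicin, in the order used above. The second library at 0.2 µM lay between the controls, so the groups overlapped. The log2 fold change of -0.58 ± 0.27 (SE) did not pass the threshold (adjusted p = 0.198, edgeR). CDKN1B spans 12717368 to 12722369 on chromosome 12 and overlaps no other annotated gene. CDKN1C encodes p57, an imprinted gene known for restraining growth in development. It had only 22 and 27 counts in DMSO and 22, 8 and 27 after doxorubicin, between 0.333 and 1.06 CPM. Its groups overlapped and its log2 fold change of -0.55 had an SE of 0.50 (adjusted p = 0.502, edgeR).

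Among the INK4 genes, CDKN2C encodes p18. It had 55.8 and 72.1 CPM in DMSO, 15.1 and 15.5 CPM at 0.2 µM and 11.9 CPM at 0.34 µM. The 3 treated libraries lay close together and well below both controls. The mean fell from 63.9 ± 11.6 CPM (SD, n = 2) to 14.2 ± 1.94 CPM (SD, n = 3), and the level in DMSO was 4.52-fold that in doxorubicin. The log2 fold change was -2.18 ± 0.20 (SE) with an adjusted p of 0.00163 (edgeR). CDKN2C (chromosome 1, 50960745 to 50974634) overlaps no other annotated gene. The call was lost without DMSO replicate 2 (log2 fold change -1.998, adjusted p = 0.0140, edgeR) and, narrowly, without replicate 2 at 0.2 µM (-2.24, adjusted p = 0.0101, edgeR). CDKN2D, which encodes p19 of the INK4 family, had 9.80 and 16.1 CPM in DMSO and 6.30, 3.58 and 6.50 CPM after doxorubicin. All treated libraries were again below both controls. Its log2 fold change of -1.24 ± 0.34 (SE) did not pass in edgeR (adjusted p = 0.0592) and passed in DESeq2 (-1.25, adjusted p = 0.00696). It lies on chromosome 19 from 10566460 to 10568979 and overlaps no other annotated gene.

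CDKN2A and CDKN2B are neighbours on chromosome 9. CDKN2A (21967752 to 21995324) encodes p16 and, from another first exon and reading frame, ARF, which inhibits MDM2. The counts per gene do not separate the transcripts of these products. CDKN2A had 265 and 124 CPM in the DMSO libraries and 117, 90.1 and 101 CPM after doxorubicin. The treated libraries lay below both controls, but the controls themselves differed 2.14-fold, more than those of any other CDK inhibitor gene. The log2 fold change was -0.92 ± 0.31 (SE) and did not pass (adjusted p = 0.0968, edgeR). Its size rested on the control library, being -0.28 with DMSO replicate 1 left out and -1.39 with replicate 2 left out.

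CDKN2B (22002903 to 22009313) encodes p15, a mediator of arrest by TGF-beta, and was the only INK4 gene with a positive fold change in this comparison. It had 65.5 and 41.4 CPM in DMSO and 75.2, 66.1 and 84.9 CPM after doxorubicin. The groups did not overlap, yet the lowest treated library differed from the higher control by under 1 CPM. The log2 fold change was 0.50 ± 0.23 (SE, adjusted p = 0.198, edgeR). With DMSO replicate 1 left out it was 0.86, and with replicate 2 left out 0.19. Both genes overlap the antisense gene CDKN2B-AS1, whose row held 18 and 13 counts in DMSO and 5, 4 and 4 after doxorubicin. Its level was under 1 CPM in every library. CDKN2A also overlaps CDKN2A-AS1 and LOC124902130.

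**Figure D2:**
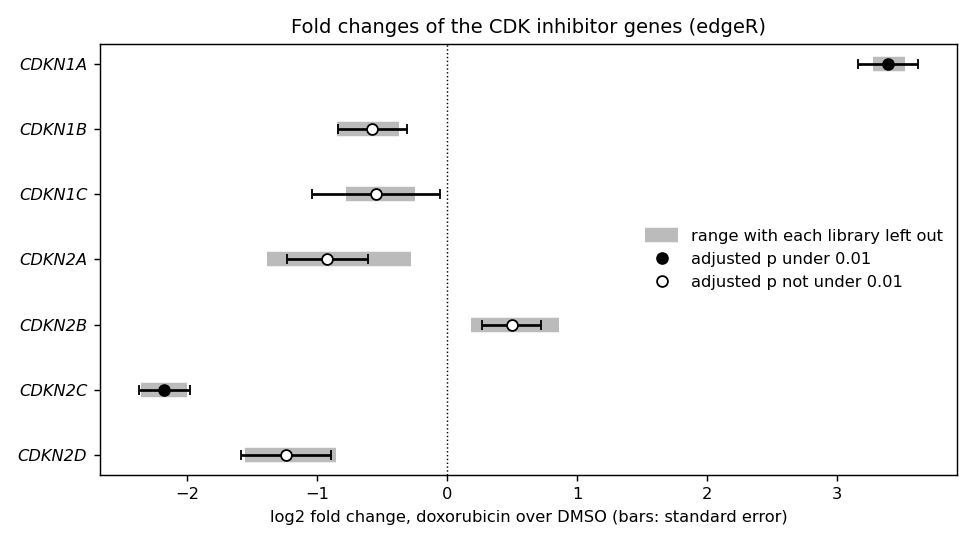
Log2 fold change of each CDK inhibitor gene, doxorubicin over DMSO (x axis), from edgeR with its SE as a bar, filled where the adjusted p was under 0.01. The grey range of fits with 1 library left out stays on the same side of 0 for every gene and is widest for CDKN2A, from -1.39 to -0.28.

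To compare levels between the genes, CPM was divided by length, first by the union of all exons in GENCODE and then by the single MANE Select transcript. On the union scale CDKN1A was the highest in DMSO (92.1 ± 8.71 CPM per kilobase; SD, n = 2). It was followed by CDKN2A (50.1 ± 25.7), CDKN2C (21.2 ± 3.83), CDKN2B (13.4 ± 4.25), CDKN1B (10.9 ± 2.25), CDKN2D (8.59 ± 2.94) and CDKN1C (0.382 ± 0.0622). The ranges of CDKN2B, CDKN1B and CDKN2D overlapped with that of the next gene or the one before. The union is long for CDKN1B (9255 bases against 2411 in the MANE transcript) and for CDKN2A (3885 against 978). With MANE lengths CDKN2A led in DMSO (199 ± 102 CPM per kilobase; SD, n = 2), its range overlapped with that of CDKN1A (130.4 ± 12.3), and CDKN1B ranked above CDKN2B. After doxorubicin the first and second places did not depend on the length. CDKN1A had 968 ± 167 CPM per kilobase (SD, n = 3) on the union scale and 1370 ± 236 with MANE lengths, and CDKN2A 26.4 ± 3.52 and 105 ± 13.98. In the treated libraries CDKN2C (4.69 ± 0.643) and CDKN2D (3.63 ± 1.09) overlapped on the union scale, and CDKN1B and CDKN2B did with MANE lengths. CDKN2C moved from rank 3 in DMSO to rank 5 after doxorubicin on both scales, and CDKN1C remained the lowest.

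**Figure D3:**
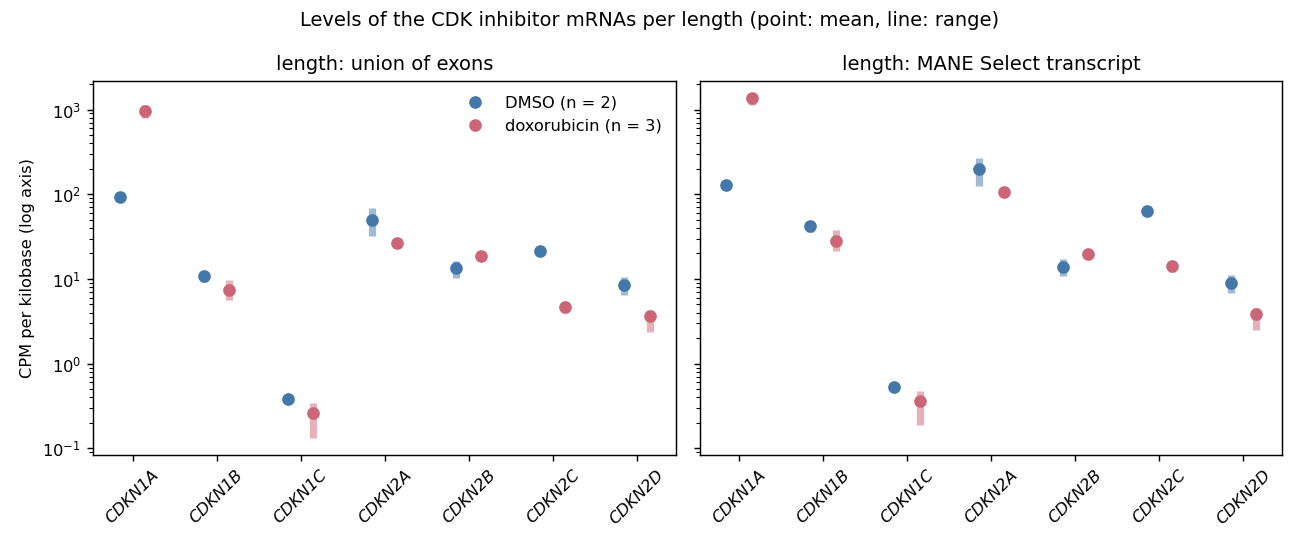
Levels of the 7 mRNAs in CPM per kilobase (log axis) with the union of exons (left) or the MANE Select transcript (right) as length, as means of the 2 DMSO (blue) and 3 doxorubicin (red) libraries with their range. In DMSO the leading gene is CDKN1A on the left and CDKN2A on the right, and after doxorubicin CDKN1A leads in both panels.

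CDKN1A made up 45.2% and 48.9% of the summed level of the 7 genes per kilobase in the DMSO libraries (union of exons), and 93.9%, 93.2% and 94.8% after doxorubicin. With MANE lengths these shares were 26.4% and 31.1%, and 88.4%, 87.1% and 90.7%. The groups lay apart on both scales. The summed level of the INK4 genes was 110 and 76.8 CPM per kilobase in DMSO and 58.2, 47.2 and 55.4 after doxorubicin (union of exons), lower in every treated library. CDKN2A, which did not pass the threshold, made up 68.3 and 31.9 of these sums in DMSO and 30.2, 23.2 and 25.9 after doxorubicin. The sum of the Cip/Kip genes was 108 and 98.9 in DMSO and 999.98, 799.7 and 1127 after doxorubicin, higher in every treated library. CDKN1A alone made up 993, 790 and 1121 of the treated sums, whereas CDKN1B and CDKN1C had negative fold changes. Among the INK4 genes, CDKN2B had a positive one, so neither sum describes every member of its family. For comparison with the kinases, the level of CDKN1A was 1.53 and 0.816 times the summed level of CDK1, CDK2, CDK4 and CDK6 in DMSO, and 21.4, 14.9 and 24.7 times after doxorubicin. The summed INK4 genes were 3.20 and 1.15 times the summed CDK4 and CDK6 in DMSO and 1.51, 1.08 and 1.45 times after doxorubicin. With MANE lengths the INK4 ratios were 6.98 and 2.10 in DMSO and 2.76, 1.93 and 2.48 after doxorubicin, and the groups overlapped on both scales. The CDKN1A ratios with MANE lengths were 1.29 and 0.678 in DMSO and 19.5, 13.3 and 22.5 after doxorubicin, without overlap. These ratios are of mRNA and carry no test.

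Between the doses, 0 of the 7 genes passed the threshold in edgeR, as was the case for 0% of the 14187 genes tested, and 0 of the 7 had an unadjusted p under 0.05. Over all genes, 22 had an unadjusted p under 0.05 in edgeR, and DESeq2 also called 0, with 33 at an unadjusted p under 0.05. Both counts are far below a share of 0.05 of the genes, so the 0 among the 7 genes says little. The log2 differences of the 0.34 µM library from the 0.2 µM libraries lay between -0.55 ± 0.35 (SE) for CDKN1B and 0.40 ± 0.50 (SE) for CDKN2D. For CDKN1A the difference was 0.33 ± 0.31 (SE) and for CDKN2C -0.36 ± 0.30 (SE). The single library at 0.34 µM has no replicate, and its spread was taken from the other conditions. Over all genes it was nearer to replicate 1 at 0.2 µM (chi-square of 9.01 per degree of freedom) than the replicates at 0.2 µM were to each other (75.3). Against replicate 2 at 0.2 µM its chi-square per degree of freedom was 74.1. A difference that misses the threshold here does not show that the doses acted alike.

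A list of 45 genes held partners, targets and regulators of the CDK inhibitors, their genomic neighbours and other genes with a CDKN name. Of these, 44 were tested, of which 1 rose, 11 fell and 32 did not pass in edgeR (1.29% of all genes tested rose and 2.73% fell), with a median log2 fold change of -0.45. DESeq2 called 16, where it called 14.1% of all the genes it tested. Among the 16 were CCNE1, SKP2, DTL and DDB1, which did not pass in edgeR. Of these, DDB1 had a positive log2 fold change (0.79, edgeR) and the others had negative ones. In edgeR, 7 passed without DMSO replicate 1 (1.48% of all genes), 3 without DMSO replicate 2 (0.335%), 6 without replicate 1 at 0.2 µM (1.48%), 9 without replicate 2 at 0.2 µM (1.31%) and 6 without the 0.34 µM library (1.28%). Among the 12 CDKs and cyclins, 6 fell and none rose. CDK2, the main kinase bound by p21, had 55.2 and 65.1 CPM in DMSO and 19.3, 18.3 and 17.4 CPM after doxorubicin, a log2 fold change of -1.71 ± 0.16 (SE, adjusted p = 0.00163, edgeR). CDK1 (-2.44), CCNA2 (-3.95), CCNB1 (-3.87), CCNB2 (-3.26) and CCNE2 (-3.58) also fell. Of the kinases bound by INK4 proteins, CDK4 had a log2 fold change of -0.46 ± 0.35 (SE) and CDK6 one of 0.10 ± 0.14 (SE), neither of which passed. CDK4 differed more than 2-fold between the controls, with 73.0 CPM in DMSO replicate 1 and 179 CPM in replicate 2. Genes of the list that fell could differ as much, such as CCNE2 (11.1 and 29.3 CPM) and E2F1 (18.9 and 42.4 CPM). In other listed genes, such as KLF6 (223 and 108 CPM), replicate 1 was the higher. CCND1 had 1089 and 1493 CPM in DMSO and 1784, 2432 and 1709 CPM after doxorubicin, without overlap, but did not pass (0.61 ± 0.24 SE, adjusted p = 0.136, edgeR).

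Of 4 genes made up of E2F1 and the pocket proteins, RBL1 (-2.24) and E2F1 (-2.62) fell, and RB1 (-0.47) and RBL2 (0.10) did not pass. Of 12 regulators of the transcription of the inhibitors, MDM2, a ubiquitin ligase, rose (2.19 ± 0.23 SE) and EZH2, a Polycomb methyltransferase known to silence the CDKN2A locus, fell (-2.43 ± 0.23 SE). Of 10 genes for the turnover of the inhibitor proteins, CKS1B, the partner of SKP2, fell (-1.90 ± 0.19 SE), and SKP2 had a log2 fold change of -1.23 with an adjusted p of 0.0202 in edgeR and 0.000154 in DESeq2. PCNA and DTL, which target p21 for degradation together with CUL4 and DDB1, had log2 fold changes of 1.01 and -2.54 and did not pass in edgeR (adjusted p = 0.117 and 0.0130), while DTL passed in DESeq2 (adjusted p = 6.5e-08). Of 4 neighbouring or antisense genes, PANDAR, near CDKN1A, had 1 count in all libraries together and was not tested, and CDKN2B-AS1 (-1.93), KCNQ1OT1 (-1.02) and MTAP (-0.50) did not pass. Of the 3 genes that carry a CDKN name but belong to neither family, CDKN3, a phosphatase of CDKs, fell from 66.4 ± 9.99 CPM (SD, n = 2) to 5.03 ± 1.08 CPM (SD, n = 3), with a log2 fold change of -3.73 ± 0.23 (SE). CDKN2AIP (-0.34) and CDKN2AIPNL (-0.63) did not pass.

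**Figure D4:**
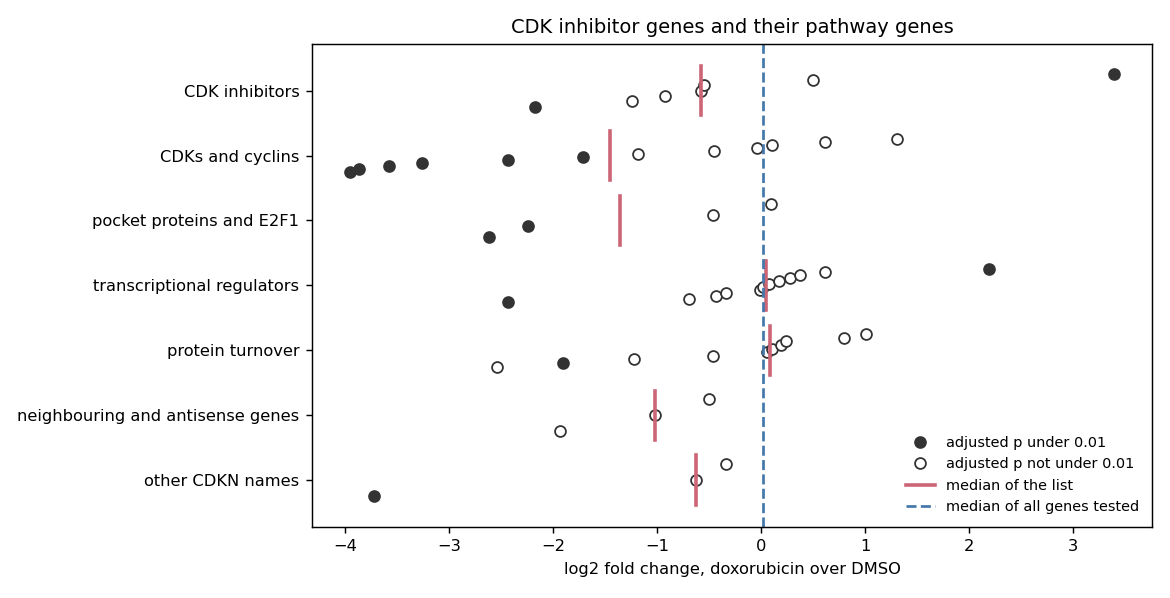
Log2 fold change, doxorubicin over DMSO (x axis, edgeR), of the 7 CDK inhibitor genes and of the 44 tested pathway genes by sublist, filled where the adjusted p was under 0.01, with the median of each list in red and that of all genes (0.013) as a dashed line. CDKN1A and MDM2 are the filled points on the right, and the filled points of CDKs, cyclins, RBL1, E2F1, EZH2, CKS1B and CDKN3 lie on the left with CDKN2C.

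The pattern over the 5 libraries was compared with that of every gene outside these lists by the root mean square difference between centred log2 CPM values. The nearest genes to CDKN1A were VWCE (0.190), HMCN2 (0.196) and KIAA1211L (0.2503), although HMCN2 had 1 and 0 counts in DMSO and did not pass the threshold. To CDKN2C they were DCLRE1B (0.0648), a nuclease of telomeres, CHAF1A (0.0779), a histone chaperone of DNA replication, and KPNA2 (0.0808), a nuclear import receptor, and each of these fell (log2 fold changes of -2.10, -2.28 and -2.17). CDKN1B was nearest to DDX20, EPM2A and FHOD3 (0.0445 to 0.0654) and CDKN2A to CREB3L1, C22orf46 and NCOA6 (0.0446 to 0.0708). CDKN2B was nearest to PPARA, ZNF554 and NMNAT1 (0.0283 to 0.0354) and CDKN2D to C14orf80, FANCC and CDHR2 (0.101 to 0.142). For CDKN1C the nearest were HIC1, PIM1 and ITGA10 (0.0957 to 0.111), and none of the genes nearest to CDKN1B, CDKN1C, CDKN2A, CDKN2B or CDKN2D passed the threshold. With 5 libraries these distances are descriptions of these samples.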

How the data were processed

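The deposited values are raw counts per gene. The authors sequenced poly-A RNA in paired-end mode and mapped the reads to hg38 with STAR, then counted with featureCounts (Rsubread) on the iGenomes annotation. The library kit keeps the strand, but no source used here gives the strand setting, the versions or the handling of multi-mapping reads. A table of the authors' own DESeq2 comparison (mean, fold change, statistic and p-values) was not used.

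Differences were tested by edgeR 4.0.16 in R 4.3.3 (TMM, the default filter set at 10 counts and a total of 15, quasi-likelihood test, Benjamini-Hochberg adjustment over all genes tested), with DESeq2 1.42.0 and limma 3.58.1 as alternatives. The SE is the absolute log2 fold change over the square root of F. The doses were compared as a contrast of 3 conditions. For log2 CPM, 2 was taken as the prior count. The fits were tested on simulated data. Replicate libraries differed beyond sampling noise (chi-square per degree of freedom of 117 in DMSO and 75.3 at 0.2 µM). The methods call them biological replicates, whereas the labels do not say that cultures were separate, so p-values measure the spread between these libraries.

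Positions come from RefSeq on GRCh38, and exon lengths from GENCODE v44 on GRCh37, used for lengths only (12938 of 14187 tested genes matched by symbol). Promoter windows were cut to the 250 bases before each start. Named are the 7 genes, genes of the pathway list (an item of it is counted but not reported here), and the 3 genes nearest in pattern to each member. The members and lists were chosen with earlier results of these data known. The alternatives were the tool, normalization, filter, threshold, grouping of doses, each library left out, a replicate block, the 3-condition fit and the length of the genes.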

Additional observations from a re-analysis of the deposited data

How the results depend on the processing

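Over all alternatives to the comparison with DMSO, the 7 log2 fold changes kept their sign in 77 of 77 values, and 73 of them also stayed on the same side of the threshold. The exceptions were CDKN2D in DESeq2 (-1.25, past the threshold) and calls lost with a library left out. With each library left out in turn, CDKN1A lay between 3.28 and 3.52 and CDKN2C between -2.36 and -1.998, the number of CDK inhibitor genes called lay between 0 and 2, and the number of pathway genes called between 3 and 9. The count of 0 was without DMSO replicate 2 (edgeR, with 3 of the 7 at an unadjusted p under 0.05). With the 0.2 µM libraries alone, which is the same fit as without the 0.34 µM library, 6 pathway genes were called. Fewer libraries enter these fits. With all 5 libraries 4.02% of all genes tested passed in edgeR, and the share was lower with any library left out. It was 1.48% without replicate 1 at 0.2 µM, 1.31% without replicate 2 at 0.2 µM and 1.28% without the 0.34 µM library. The lowest share was without DMSO replicate 2, so calls were lost there across all genes. Between the doses, 2 of 21 values changed sign, with ranges over the 0.2 µM libraries left out of -0.19 to 1.18 for CDKN1C and -0.21 to 0.19 for CDKN2A. The mean share of CDKN1A in the summed level was 47.0% in DMSO and 94.0% in doxorubicin with the union of exons, 33.2% and 89.9% with the longest transcript and 39.4% and 91.4% without length. It was 28.8% and 88.7% with the MANE transcript, an alternative chosen after seeing the data.

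The replicate numbers of the DMSO and 0.2 µM libraries are not stated to mark a shared batch. With the number as a replicate block in these 4 libraries, CDKN1A (3.27) and CDKN2C (-2.05) were the CDK inhibitor genes called. In all, 1249 genes were called, against 178 without the block. CDKN2D (-1.38) and CDKN2A (-0.82) did not pass with the block (adjusted p = 0.0111 and 0.0209, edgeR). Without the block, their adjusted p in these 4 libraries was 0.141 and 0.246 (edgeR). The differences between replicates 1 and 2 in DMSO and at 0.2 µM correlated across 14187 genes with r = 0.53. CDKN1C had the lowest counts of the 7 genes, between 8 and 27 in a library, and what depth limits was not tested.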
